A study of Rattus norvegicus with 6 samples.

Results

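The Wnt ligands, receptors and modulators of rat nasal mucosa stem cells were followed between 3 libraries of NPS-EMSC and 3 libraries of EMSC. The genes were taken by symbol from the count table: all Wnt, Fzd, Dkk, Sfrp, Rspo, Lgr and Nkd genes of the standard numbering, with Frzb, Wif1, Lrp5, Lrp6, Ror1, Ror2, Ryk, Notum, Rnf43, Znrf3, Porcn, Wls, Apcdd1 and Kremen1. This matched 51 of 20653 genes. NPS-EMSC are, per the series title, mesenchymal stem cells made to overexpress neuropeptide S, and EMSC are the cells of the same label without that prefix. Both are called primary cells from nasal mucosa, with SD given as the genotype. The labels do not say how the gene was delivered, whether EMSC carried an empty vector, how many animals gave cells, or whether the 3 libraries of a group came from separate cultures. The p-values therefore weigh the group difference against the spread between these libraries, which may be technical. Effects of gene delivery or selection cannot be told apart from those of neuropeptide S.

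Wnt proteins are secreted, lipid-modified signals. They bind Frizzled receptors together with the co-receptors LRP5 and LRP6, which leads to stabilisation of β-catenin, or act through ROR and RYK receptors without β-catenin. Secreted SFRP and DKK proteins restrain the ligands or co-receptors, while R-spondins bound to LGR receptors keep Frizzled receptors at the surface by neutralising the ubiquitin ligases RNF43 and ZNRF3. In mesenchymal stem cells the pathway is known for its part in self-renewal and in the choice between bone, cartilage and fat fates.

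Most called Wnt receptors and the only called Wnt ligand were lower in NPS-EMSC than in EMSC. Of 8 tested Frizzled genes 6 were lower, Lrp5 and Lrp6 were both lower, and Lgr4 and Lgr5 were both lower. The dominant ligand, Wnt5a, and the R-spondins Rspo1 and Rspo2 were lower as well. The inhibitors were divided: Dkk1, Dkk3, Sfrp1 and the intracellular inhibitor Nkd2 were higher, while Sfrp2, Apcdd1 and Kremen1 were lower. Of the 51 genes, 40 passed the filter on low counts and were tested, and 26 of these were called, 7 higher and 19 lower. A call is an adjusted p under 0.05 in edgeR's quasi-likelihood test with Benjamini-Hochberg adjustment over all 14505 genes tested, from which every adjusted p below comes unless another tool is named. The comparison called 59.3% of all genes tested, 29.7% higher and 29.5% lower, against 65.0% of the 40 Wnt pathway genes, 17.5% higher and 47.5% lower. Their median log2 fold change was -0.30, beside -0.0048 over all genes tested. A change of at least 2-fold was found in 3 genes that rose and 8 that fell, where 6.48% of all genes tested rose and 8.3% fell by that much. In 29 of the 40 the 3 values of one group did not overlap those of the other, as in 64.7% of all genes tested.

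**Figure D1:**
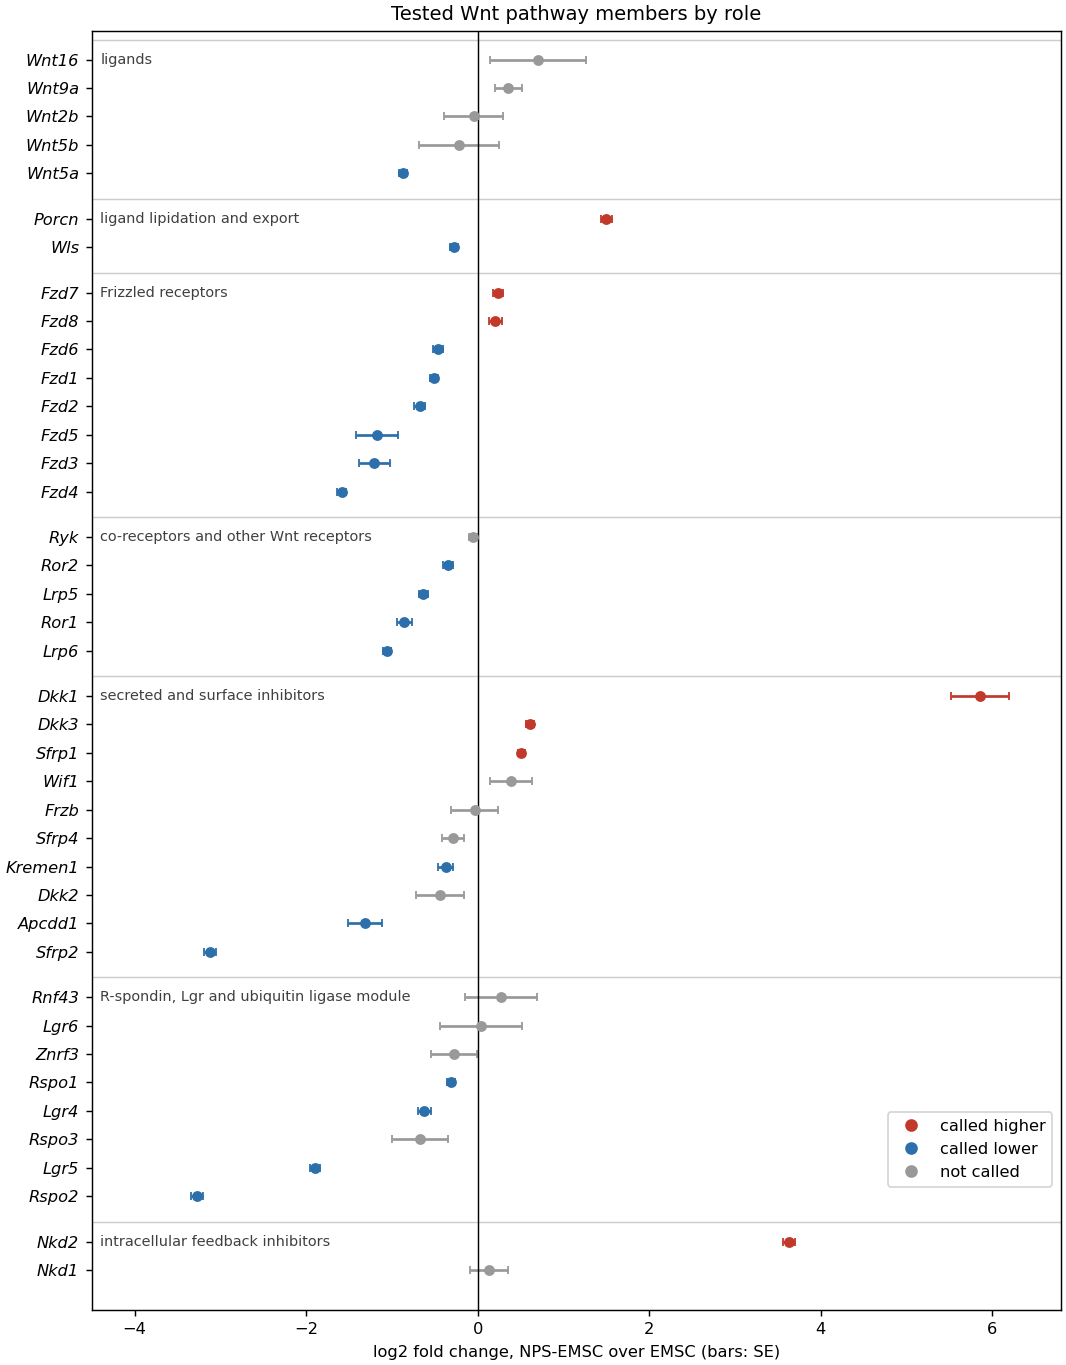
Log2 fold change of NPS-EMSC over EMSC (horizontal axis) for the 40 tested Wnt pathway genes, grouped by role, with the SE as bars. Red marks the 7 genes called higher, blue the 19 called lower and grey the 14 not called. Dkk1 (5.86) and Nkd2 (3.63) lie furthest right, and Rspo2 (-3.27) and Sfrp2 (-3.12) furthest left.

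Calls depended on how abundant a gene was. Among the 24 Wnt pathway genes with a mean of at least 5 FPKM over the 6 libraries, 6 were higher, 16 lower and 2 not called. FPKM is the read count scaled by gene length and by the total of counted reads. Of all tested genes above that level, 67.5% were called, 39.3% higher and 28.3% lower. Among the 16 tested genes under 5 FPKM, 1 was higher, 3 were lower and 12 were not called, where 49.7% of all tested genes at that level were called, 18.6% higher and 31.0% lower. The 11 untested genes all had a mean under 5 FPKM.

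The libraries were of like depth, with 39082245 to 39511976 counted reads in NPS-EMSC and 39314098 to 40261205 in EMSC. The overexpressed gene, Nps, was counted 93566, 77014 and 85916 times in NPS-EMSC and 0, 0 and 10 times in EMSC. All 6 listed mesenchymal surface markers were detected and were higher in NPS-EMSC, Thy1 (CD90) with a log2 fold change of 1.55. Smooth muscle markers summed to 2727 to 2951 FPKM in NPS-EMSC and 697 to 811 FPKM in EMSC, and 6 of 7 tested were higher. Of 7 tested leukocyte markers 6 were lower and 1 was higher, beside 29.5% lower and 29.7% higher of all genes tested. The leukocyte markers summed to 7.21 to 8.89 FPKM in NPS-EMSC and 42.4 to 51.3 FPKM in EMSC. The lysozyme gene Lyz2 alone averaged 2.76 FPKM in NPS-EMSC and 38.8 FPKM in EMSC. Ptprc (CD45) averaged 0.00166 FPKM in NPS-EMSC and 0.154 FPKM in EMSC. Among those called lower, Ptprc, Csf1r and Itgam passed the low-count filter through the EMSC libraries alone, so they could hardly be called higher. Of 3 tested Schwann and ensheathing glia markers 2 were lower (2.85 to 3.27 FPKM summed in NPS-EMSC, 13.4 to 13.7 FPKM in EMSC), and Sox10 stayed at 0.0168 FPKM in NPS-EMSC and 0.0192 FPKM in EMSC. Epithelial markers summed to 6.16 to 7.86 FPKM in NPS-EMSC and 2.79 to 3.11 FPKM in EMSC. Krt5 had 0 reads in NPS-EMSC and 28 in EMSC, and Krt14 0 in NPS-EMSC and 1 in EMSC, too few to test. Of 3 tested epithelial markers, Krt8 and Krt18 were higher and carried the sum, with log2 fold changes of 0.73 and 3.02. The third, Tp63, was lower at -2.82. Endothelial markers stayed under 1 FPKM in sum in each library, and osteochondral markers summed to 6.38 to 8.83 FPKM in NPS-EMSC and 5.85 to 6.89 FPKM in EMSC. Of 5 tested osteochondral genes, Acan and Ibsp were higher, with log2 fold changes of 3.15 and 1.56, Col2a1 and Sox9 were lower, at -1.58 and -0.68, and Alpl was not called. The part of these cell type markers in the differences among Wnt pathway genes was not tested. In bulk RNA, fewer cells of one type and less RNA per cell cannot be told apart.

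Promoters are shown for the inhibitors Dkk1 and Nkd2, which had the largest increases, and Sfrp2, which had the second largest decrease. No promoter sequence of Rspo2, which had the largest decrease, was used here. Each is the 250 bases before the annotated start in RefSeq on assembly GRCr8, 5′ to 3′ on the gene's own strand: Dkk1 at chr1:237798651-237798900 (minus strand), Nkd2 at chr1:31272282-31272531 (plus strand) and Sfrp2 at chr2:171387286-171387535 (plus strand). Capitals mark matches, on either strand, to the core site of the TCF/LEF factors through which β-catenin acts (searched as CTTTGAT and CTTTGAA) or to a TATA box (TATAAA).
Dkk1: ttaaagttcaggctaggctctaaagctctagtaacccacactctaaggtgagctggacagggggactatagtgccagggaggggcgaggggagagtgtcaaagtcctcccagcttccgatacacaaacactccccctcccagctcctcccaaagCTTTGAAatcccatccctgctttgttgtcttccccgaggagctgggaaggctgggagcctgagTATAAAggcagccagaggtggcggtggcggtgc
Nkd2: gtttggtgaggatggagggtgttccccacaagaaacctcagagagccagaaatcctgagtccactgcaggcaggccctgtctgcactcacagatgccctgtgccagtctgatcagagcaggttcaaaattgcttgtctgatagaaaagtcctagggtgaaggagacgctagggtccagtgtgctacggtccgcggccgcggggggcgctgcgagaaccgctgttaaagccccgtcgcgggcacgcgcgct
Sfrp2: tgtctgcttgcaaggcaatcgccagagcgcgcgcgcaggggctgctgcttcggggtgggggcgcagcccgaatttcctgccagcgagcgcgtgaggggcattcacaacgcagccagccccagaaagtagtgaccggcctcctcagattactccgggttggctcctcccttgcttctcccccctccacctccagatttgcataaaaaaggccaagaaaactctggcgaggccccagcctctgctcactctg
The Dkk1 window held 1 TCF/LEF match beginning 96 bases before the start and 1 TATA match beginning 33 bases before it. The windows of Nkd2 and Sfrp2 held neither. Over all 33469 RefSeq promoter windows of this length, 7.58% held the TCF/LEF core and 12.9% the TATA letters. Windows were found for 32 of the 51 genes, too few to describe the whole set, and the only other TCF/LEF match lay upstream of Nkd1.

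**Figure D2:**
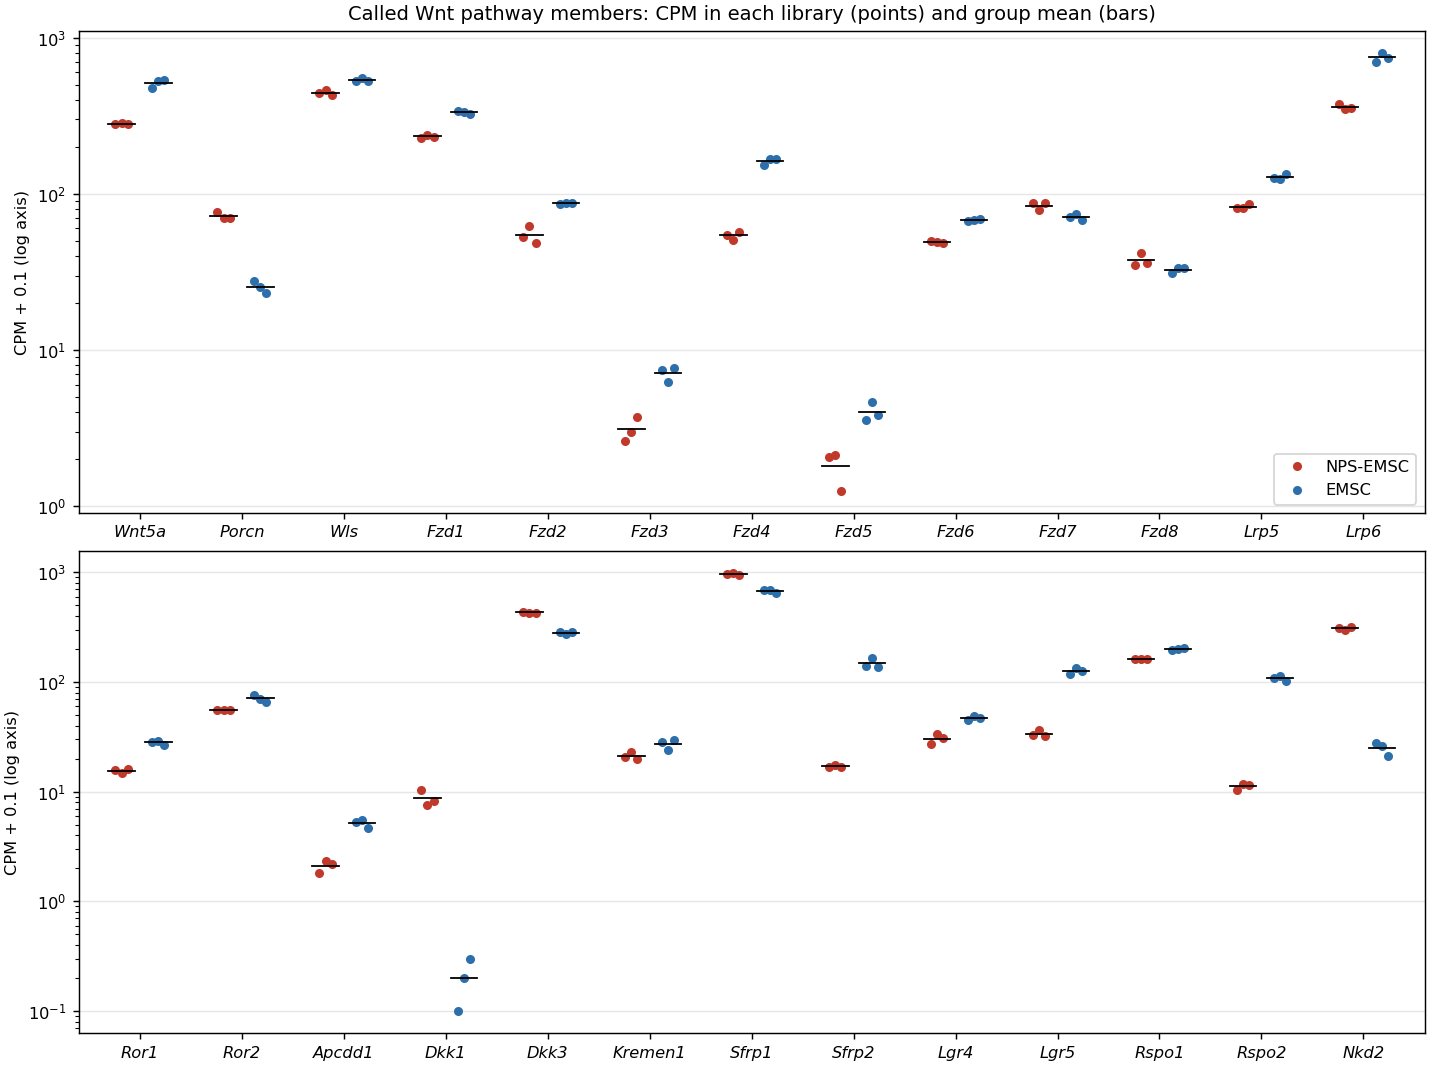
CPM + 0.1 on a log axis for the 26 called Wnt pathway genes, with NPS-EMSC in red left of EMSC in blue. Points are libraries and horizontal bars group means (n = 3 each). The groups do not overlap for any of these genes, which are drawn because they were called. Of all genes tested, 64.7% had no overlap. The widest gap is that of Dkk1, at 7.47 to 10.3 CPM in NPS-EMSC and 0 to 0.200 CPM in EMSC.

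Wnt5a supplied nearly all ligand transcripts, and it was lower in NPS-EMSC. WNT5A is the best known ligand of the β-catenin-independent branch. It had 279, 282 and 280.2 CPM in the NPS-EMSC libraries and 477, 528 and 535 CPM in the EMSC libraries. CPM are read counts scaled to a common library total, with edgeR's TMM factors. All NPS-EMSC libraries lay below all EMSC libraries, 1.83-fold lower on the mean (log2 fold change -0.87, SE 0.05, adjusted p = 2.98e-14). In FPKM, where genes can be compared by level, Wnt5a made up 91.0% ± 0.365 of the summed level of the 12 ligand genes in NPS-EMSC and 95.6% ± 0.842 in EMSC (SD, n = 3 each). The sum itself was 37.8 ± 0.506 FPKM in NPS-EMSC and 67.9 ± 3.38 FPKM in EMSC.

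No other ligand was called. The second ligand by level was Wnt9a, at 1.82 ± 0.139 FPKM in NPS-EMSC and 1.46 ± 0.182 FPKM in EMSC. Its 3 values did not overlap between the groups, and its log2 fold change was 0.36 (SE 0.16, adjusted p = 0.0576). Without EMSC replicate 1 it passed at 0.45 (adjusted p = 0.0354). Wnt2b followed at 0.838 ± 0.235 FPKM in NPS-EMSC and 0.892 ± 0.383 FPKM in EMSC, and Wnt16 and Wnt5b stood at or under 0.307 FPKM on the mean in either group. The log2 fold change of Wnt16, 0.71 (SE 0.56, adjusted p = 0.285), rested on NPS-EMSC replicate 2, without which it was 0.06. The ranks of Wnt16 and Wnt5b changed places between the groups, within their spread. The other 7 ligands were too low to test. Wnt10b had 21 reads over the NPS-EMSC libraries and 12 over the EMSC libraries. Wnt4 had 23 reads in NPS-EMSC and 19 in EMSC, and Wnt7b 18 in NPS-EMSC and 34 in EMSC. The others were near 0: Wnt11 had 4 reads in NPS-EMSC and 7 in EMSC, Wnt6 5 in NPS-EMSC and 1 in EMSC, and Wnt10a 1 in NPS-EMSC and 0 in EMSC. Wnt2 had 0 reads in NPS-EMSC and 10 in EMSC, with reads in each EMSC library, and did not pass in a fit without the low-count filter (adjusted p = 0.0616).

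The 2 genes that act on ligands before secretion went in opposite directions. Porcn, the acyltransferase that attaches the lipid to WNT proteins, had 76.1, 70.2 and 69.4 CPM in NPS-EMSC, against 27.5, 25.2 and 23.2 CPM in EMSC. It was 2.84-fold higher (log2 fold change 1.5, SE 0.07, adjusted p = 6.13e-16). Wls, the carrier that takes lipidated WNT proteins to the cell surface, had 439.5, 462 and 429.9 CPM in NPS-EMSC and 525, 555 and 527 CPM in EMSC. It was lower by a smaller factor, 1.21-fold (log2 fold change -0.27, SE 0.05, adjusted p = 1.33e-05). Wls stayed the more abundant of the pair, at 112 ± 4.6 against 37.6 ± 1.69 FPKM for Porcn in NPS-EMSC, and at 139 ± 2.94 against 13.7 ± 1.25 FPKM in EMSC.

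Most Frizzled receptors fell, by unequal factors. The largest decrease was in Fzd4, which besides WNT proteins binds norrin. It had 54.7, 50.5 and 57.0 CPM in NPS-EMSC and 153, 167 and 166 CPM in EMSC, a 3.0-fold difference (log2 fold change -1.58, SE 0.05, adjusted p = 2.04e-18). Fzd3, known for its role in axon tract formation, had 2.53, 2.90 and 3.62 CPM in NPS-EMSC and 7.38, 6.16 and 7.54 CPM in EMSC (log2 fold change -1.21, SE 0.18). Fzd5 had 1.96, 2.04 and 1.16 CPM in NPS-EMSC and 3.45, 4.58 and 3.76 CPM in EMSC (log2 fold change -1.17, SE 0.24). In none of the 3 genes did an NPS-EMSC library reach an EMSC library. The receptors of highest level fell less. Fzd1 had 228, 239 and 232 CPM in NPS-EMSC and 339, 333 and 323 CPM in EMSC (log2 fold change -0.51, SE 0.04, adjusted p = 2.33e-10). Fzd2 had 52.8, 61.9 and 48.5 CPM in NPS-EMSC, more spread than the 86.4, 87.3 and 87.0 CPM of EMSC (log2 fold change -0.68, SE 0.07). Fzd6, a receptor of tissue polarity, fell 1.38-fold to 49.2 ± 0.863 CPM, against 67.9 ± 0.672 CPM in EMSC.

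Fzd7 and Fzd8 were the 2 Frizzled genes that rose, both slightly. Fzd7 stood at 84.0 ± 5.01 CPM in NPS-EMSC and 71.1 ± 2.97 CPM in EMSC (SD, n = 3 each), with a log2 fold change of 0.24 (SE 0.06, adjusted p = 5.74e-04). Fzd8 stood at 37.6 ± 3.78 CPM in NPS-EMSC and 32.6 ± 1.23 CPM in EMSC (log2 fold change 0.21, SE 0.08, adjusted p = 0.0215). The call on Fzd8 was lost with upper-quartile factors (adjusted p = 0.0534), in all 3 fits on FPKM (0.154 to 0.214), without EMSC replicate 1 (0.0796) and without NPS-EMSC replicate 2 (0.192), the library with its highest value. Fzd9 had 0, 0 and 1 reads in NPS-EMSC and 6, 5 and 15 in EMSC. It did not pass the filter, and a fit without the filter called it lower (log2 fold change -2.16, adjusted p = 0.0216), as did DESeq2 (adjusted p = 0.0152).

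The make-up of the Frizzled transcripts shifted with these changes. Their summed level was 134.5 ± 3.64 FPKM in NPS-EMSC and 196 ± 1.78 FPKM in EMSC. Fzd1 kept a like share of it, 38.8% ± 0.511 in NPS-EMSC and 39.0% ± 0.854 in EMSC, while the share of Fzd4 was 5.97% ± 0.491 in NPS-EMSC and 12.6% ± 0.581 in EMSC. The share of Fzd7 was 21.8% ± 1.77 in NPS-EMSC and 13% ± 0.394 in EMSC, and that of Fzd8 4.03% ± 0.316 in NPS-EMSC and 2.47% ± 0.0899 in EMSC. In EMSC the order of levels was Fzd1, Fzd2, Fzd7 and Fzd4, with Fzd7 at 25.6 ± 0.933 FPKM and Fzd4 at 24.8 ± 0.948 FPKM within their spread. In NPS-EMSC, Fzd7 at 29.3 ± 1.62 FPKM and Fzd2 at 28.0 ± 3.62 FPKM could not be ranked, and Fzd4 at 8.01 ± 0.463 FPKM lay below Fzd6 at 9.5 ± 0.127 FPKM.

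**Figure D3:**
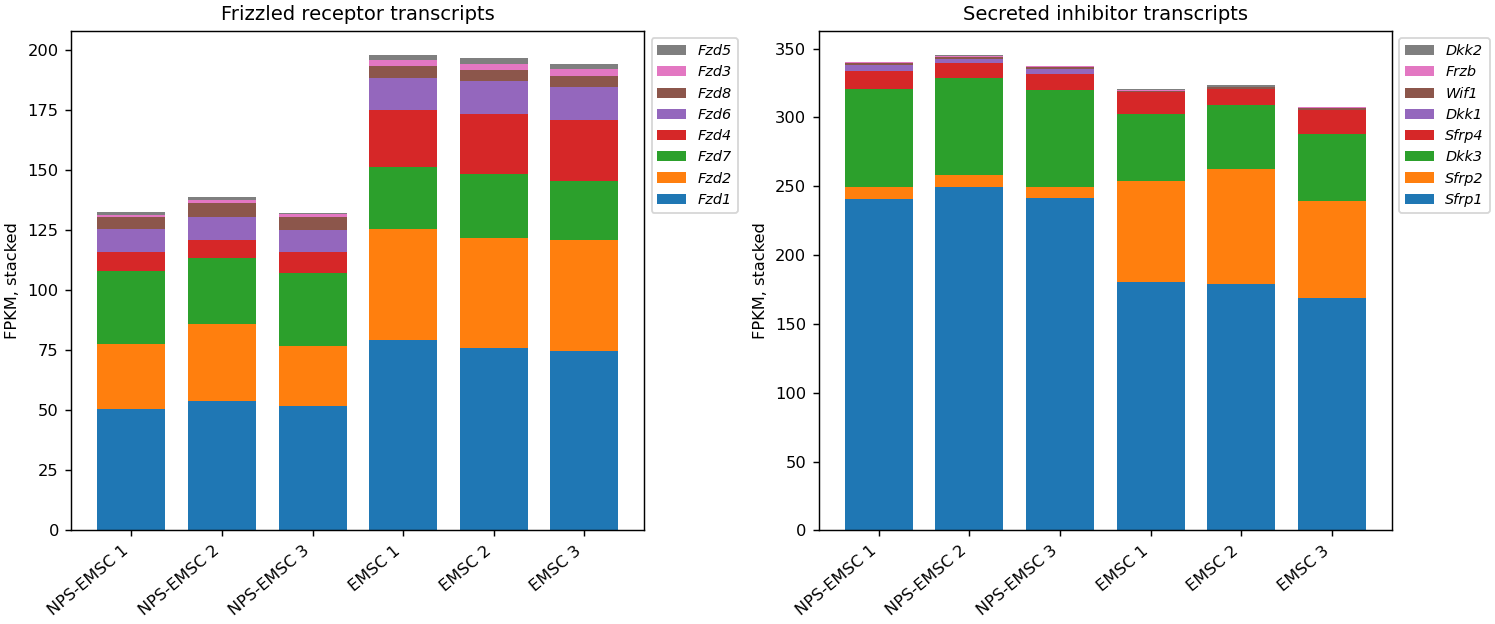
Stacked FPKM in each library for 8 Frizzled genes (left; Fzd9, under 0.1 FPKM on the mean, is not drawn) and for 8 secreted inhibitors (right; Dkk4 and Notum, under 0.1 FPKM, are not drawn), NPS-EMSC libraries first. The Frizzled stack is lower in every NPS-EMSC library, with a thinner Fzd4 layer. The inhibitor stacks are of similar height, with Sfrp2 thin and Sfrp1 and Dkk3 thick in NPS-EMSC.

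Both β-catenin branch co-receptors fell. Lrp6 had 373, 347 and 353 CPM in NPS-EMSC and 698, 794 and 744 CPM in EMSC, and was 2.08-fold lower (log2 fold change -1.06, SE 0.05, adjusted p = 1.56e-15). Lrp5 had 80.7, 80.7 and 86.4 CPM in NPS-EMSC and 126, 125 and 133 CPM in EMSC (log2 fold change -0.63, SE 0.05, adjusted p = 4.27e-11). Together they summed to 55.4 ± 1.15 FPKM in NPS-EMSC and 110.1 ± 4.29 FPKM in EMSC, with no overlap between the groups. Lrp6 held 71.1% ± 1.28 of that sum in NPS-EMSC and 76.7% ± 1.35 in EMSC.

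Of the ROR and RYK receptors, Ror1 and Ror2 were lower and Ryk was close to level. Ror1, a receptor tyrosine kinase-like protein, had 15.8, 14.7 and 15.9 CPM in NPS-EMSC and 28.4, 29.1 and 26.5 CPM in EMSC (log2 fold change -0.86, SE 0.09, adjusted p = 3.27e-09). Its relative Ror2 had 55.7, 55.5 and 55.6 CPM in NPS-EMSC and 76.4, 69.9 and 66.0 CPM in EMSC (log2 fold change -0.35, SE 0.06, adjusted p = 1.24e-05). Ryk, a further WNT receptor with an inactive kinase domain, was not called, at 151 ± 0.165 CPM in NPS-EMSC and 156 ± 1.78 CPM in EMSC (log2 fold change -0.05, SE 0.04, adjusted p = 0.334). Its libraries did not overlap between the groups, but lay within a few CPM of each other. Ryk ranked first among these receptors and co-receptors in NPS-EMSC, at 51.1 ± 0.360 FPKM against 39.4 ± 1.28 FPKM for Lrp6. In EMSC it ranked after Lrp6, at 54.6 ± 1.01 against 84.5 ± 4.57 FPKM.

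**Figure D4:**
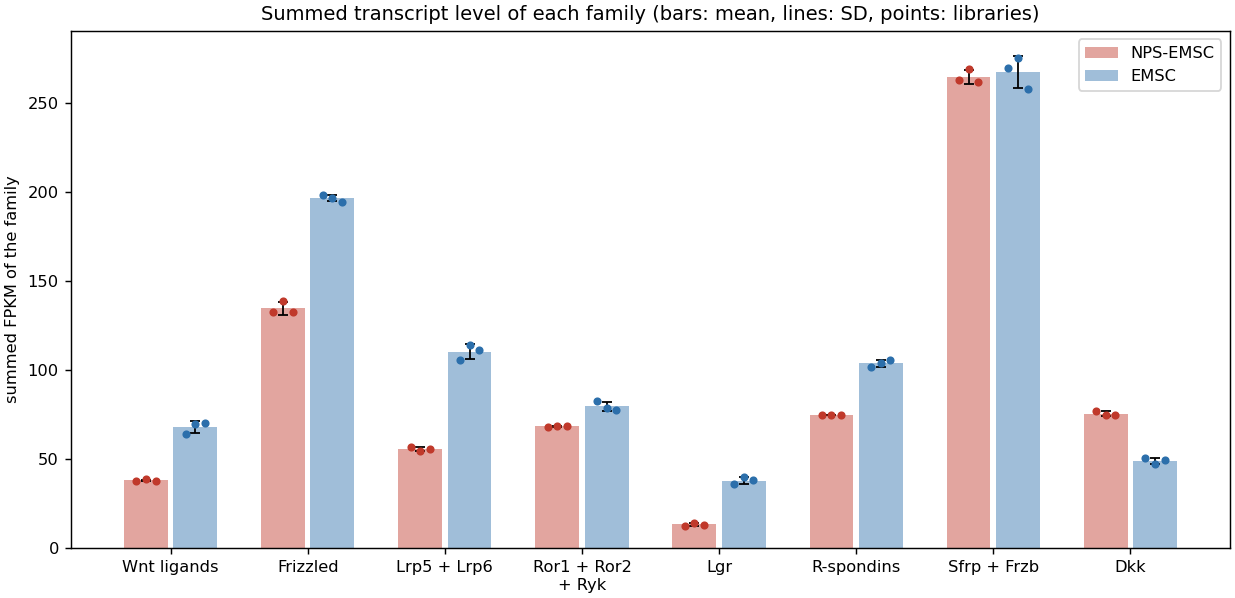
Summed FPKM of each family, with NPS-EMSC in red left of EMSC in blue. Bars are means, lines the SD and points the libraries (n = 3 each). Of the 8 families drawn, 6 are lower in all NPS-EMSC libraries. The Sfrp and Frzb sums overlap between the groups, and the Dkk sum is higher in NPS-EMSC, at 75.3 ± 1.2 FPKM against 48.9 ± 1.62 FPKM in EMSC. Dkk3 makes up 94.4% ± 0.657 of the Dkk sum in NPS-EMSC and 98.3% ± 0.454 in EMSC.

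The secreted Frizzled-related proteins bind WNT ligands outside the cell, and their transcripts exchanged shares with little change in sum. By FPKM, Sfrp1 was the most abundant Wnt pathway gene in both groups. It had 959, 979.7 and 953 CPM in NPS-EMSC and 685, 694 and 648 CPM in EMSC (log2 fold change 0.51, SE 0.04, adjusted p = 3.38e-10). Sfrp2 had 16.7, 17.4 and 16.7 CPM in NPS-EMSC and 141, 165 and 137 CPM in EMSC, 8.73-fold lower (log2 fold change -3.12, SE 0.07, adjusted p = 2.62e-21). The sum of Sfrp1, Sfrp2, Sfrp4 and Frzb was 264.6 ± 4.08 FPKM in NPS-EMSC and 267.5 ± 8.98 FPKM in EMSC, with overlapping libraries. Of it, Sfrp1 made up 92.1% ± 0.393 in NPS-EMSC and 65.9% ± 0.942 in EMSC, and Sfrp2 3.18% ± 0.0460 in NPS-EMSC and 28.3% ± 1.85 in EMSC. Sfrp4 was not called, at 40.1 ± 4.04 CPM in NPS-EMSC and 49.1 ± 8.70 CPM in EMSC (log2 fold change -0.29, SE 0.13, adjusted p = 0.0802). It passed as lower in 7 of the 16 alternative fits, among them DESeq2 (adjusted p = 0.0206). Frzb, at 1.98 ± 0.304 CPM in NPS-EMSC and 2.02 ± 0.457 CPM in EMSC, had overlapping libraries (adjusted p = 0.924).

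Among the Dickkopf genes, Dkk1 was higher in NPS-EMSC and near 0 in EMSC. DKK1 blocks LRP5 and LRP6. It had 10.3, 7.47 and 8.04 CPM in NPS-EMSC, from 394, 289 and 313 reads, against 0, 0.0990 and 0.200 CPM in EMSC, from 0, 4 and 8 reads. The ratio of the means was 86.2. The edgeR estimate on the log2 scale was 5.86 (SE 0.34, adjusted p = 1.95e-12), pulled towards 0 by the prior count of 2. It passed the low-count filter through the NPS-EMSC libraries alone. The fitted value ranged with the method, from 2.16 on log2(FPKM + 1) values to 7.02 with limma-voom, and stayed called in each. Dkk3, a divergent relative that does not act as a classical LRP blocker, had 438, 426 and 427 CPM in NPS-EMSC and 286, 274 and 286 CPM in EMSC (log2 fold change 0.61, SE 0.04, adjusted p = 6.11e-12). Per length Dkk3 far exceeded Dkk1 even in NPS-EMSC, at 71.1 ± 0.647 against 3.69 ± 0.617 FPKM. Dkk2 was not called (1.73 ± 0.175 CPM in NPS-EMSC, 2.36 ± 0.717 CPM in EMSC, adjusted p = 0.183), but without EMSC replicate 3, its lowest EMSC library, it passed as lower (adjusted p = 0.0424). Dkk4 had 0 reads in NPS-EMSC and 3 in EMSC and was not tested.

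The remaining inhibitors were of low or moderate level. Apcdd1, a membrane inhibitor, had 1.72, 2.22 and 2.08 CPM in NPS-EMSC and 5.22, 5.42 and 4.56 CPM in EMSC (log2 fold change -1.31, SE 0.20, adjusted p = 4.62e-06). Kremen1, the receptor that with DKK1 removes LRP6 from the surface, was 1.29-fold lower, at 21.0 ± 1.60 CPM in NPS-EMSC and 27.2 ± 2.76 CPM in EMSC (log2 fold change -0.37, SE 0.09, adjusted p = 8.41e-04). Wif1, which binds WNT proteins, was not called, at 2.69 ± 0.333 CPM in NPS-EMSC and 2.04 ± 0.317 CPM in EMSC (adjusted p = 0.171), although its libraries did not overlap. Notum, the enzyme that removes the lipid from WNT proteins, had 1 read in NPS-EMSC and 2 in EMSC. Summed over the 10 secreted inhibitors (Sfrp, Frzb, Wif1, Dkk and Notum), the level was 341 ± 3.94 FPKM in NPS-EMSC and 317 ± 8.24 FPKM in EMSC. In transcripts per length this was 9.04 ± 0.0782 times the summed ligand level in NPS-EMSC and 4.68 ± 0.311 times in EMSC. The inhibitor sum itself was 1.08 times, and the ligand sum 0.556 times, as high in NPS-EMSC as in EMSC. Within the inhibitor sum, Dkk3, not a classical LRP blocker, held 71.1 ± 0.647 FPKM in NPS-EMSC and 48.0 ± 1.69 FPKM in EMSC. The part from Sfrp genes and Frzb overlapped between the groups.

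The R-spondin and LGR genes were lower throughout their abundant members. Rspo2 had the largest decrease of all 40 genes, with 10.3, 11.7 and 11.4 CPM in NPS-EMSC and 108, 114 and 101 CPM in EMSC, 9.68-fold lower (log2 fold change -3.27, SE 0.07, adjusted p = 1.01e-22). Rspo1 had 163, 160.3 and 160.4 CPM in NPS-EMSC and 194, 202 and 204 CPM in EMSC (log2 fold change -0.31, SE 0.04, adjusted p = 1.47e-06). Rspo1 made up 97.7% ± 0.218 of the R-spondin transcripts in NPS-EMSC and 89.8% ± 0.387 in EMSC, so the sum fell less than Rspo2, to 74.4 ± 0.143 FPKM against 103.5 ± 2.0 FPKM in EMSC. Rspo3, at 1.09 ± 0.229 CPM in NPS-EMSC and 1.77 ± 0.484 CPM in EMSC, was not called (log2 fold change -0.67, SE 0.33, adjusted p = 0.0805). It passed as lower in the 2 FPKM fits with a filter and without EMSC replicate 1 (adjusted p = 0.0387). Rspo4 had 0 reads in NPS-EMSC and 4 in EMSC.

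Lgr5, a stem cell marker in several epithelia and an R-spondin receptor, had 32.7, 36.0 and 32.2 CPM in NPS-EMSC and 117, 133 and 125 CPM in EMSC. It was 3.72-fold lower (log2 fold change -1.89, SE 0.06, adjusted p = 3.74e-19). Lgr4, its broadly expressed relative, had 27.3, 33.2 and 30.4 CPM in NPS-EMSC and 44.5, 48.6 and 47.0 CPM in EMSC (log2 fold change -0.62, SE 0.07, adjusted p = 6.27e-08). Lgr5 stayed the more abundant, with 58.4% ± 1.62 of the LGR transcripts in NPS-EMSC and 77.3% ± 0.319 in EMSC. The LGR sum was 13 ± 0.975 FPKM in NPS-EMSC and 37.6 ± 1.85 FPKM in EMSC. The ratio of R-spondin to LGR transcripts was 5.75 ± 0.432 in NPS-EMSC and 2.76 ± 0.108 in EMSC. The ubiquitin ligase genes were low and not called. Znrf3 stood at 1.85 ± 0.534 CPM in NPS-EMSC and 2.25 ± 0.0742 CPM in EMSC (adjusted p = 0.401), and Rnf43 at 0.828 ± 0.0749 CPM in NPS-EMSC and 0.675 ± 0.167 CPM in EMSC (adjusted p = 0.590). Lgr6 was low as well, with a log2 fold change of 0.04 (SE 0.48, adjusted p = 0.949), an error too wide to exclude a change of the size seen in Lgr4.

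The Naked cuticle genes encode inhibitors that bind Dishevelled inside the cell, and they differed from each other. Nkd2 had 308, 299 and 317 CPM in NPS-EMSC and 27.4, 25.9 and 21.0 CPM in EMSC, 12.4-fold higher (log2 fold change 3.63, SE 0.07, adjusted p = 1.55e-16). At 64.4 ± 1.69 FPKM in NPS-EMSC it exceeded every Frizzled gene, while in EMSC it stood at 5.34 ± 0.738 FPKM. Nkd1 was not called, at 3.95 ± 1.16 CPM in NPS-EMSC and 3.60 ± 0.566 CPM in EMSC (log2 fold change 0.13, SE 0.22, adjusted p = 0.614), with overlapping libraries.

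The rest of the pathway was described through 4 lists of other genes, all read against the 29.7% higher and 29.5% lower of all genes tested. Of 27 tested genes of β-catenin transduction and its nuclear complex, 5 were higher and 13 lower, with a median log2 fold change of -0.20. The members with the smallest p were all lower: the repressing factor gene Tcf7l1 (15.7 ± 0.563 CPM in NPS-EMSC, 37.0 ± 1.38 CPM in EMSC), the corepressor gene Tle4 (27.3 ± 1.08 CPM in NPS-EMSC, 50.2 ± 0.502 CPM in EMSC) and Ctnnb1, β-catenin itself (391 ± 19.0 CPM in NPS-EMSC, 565 ± 16.1 CPM in EMSC). Of 17 tested β-catenin target genes outside the 51, 4 were higher and 9 lower, with a median of -0.59. Ccn5 was 33.98 ± 2.28 CPM in NPS-EMSC and 161 ± 4.65 CPM in EMSC (log2 fold change -2.24, SE 0.06). Tcf4, the gene of the factor ITF-2, and Ccn4 had log2 fold changes of -0.69 and -0.59. Axin2, the most widely used target gene, was chosen after its value was seen. Like Tcf7, which was called lower, and Lef1, which was not tested, it is in both lists. It went the other way, at 19.8 ± 1.51 CPM in NPS-EMSC and 16.5 ± 0.795 CPM in EMSC (log2 fold change 0.26, SE 0.09, adjusted p = 0.0205). Its call was lost without EMSC replicate 3 (adjusted p = 0.0785), without NPS-EMSC replicate 2 (0.115) and in all 3 fits on FPKM (0.0789 to 0.102).

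Genes of planar cell polarity and other β-catenin-independent signalling were split, with 6 higher and 8 lower of 18 tested (median -0.01). The calcium-dependent kinase gene Camk2d was higher (194 ± 8.41 CPM in NPS-EMSC, 156 ± 6.65 CPM in EMSC). Fuz, a planar polarity effector, was lower (8.75 ± 0.523 CPM in NPS-EMSC, 15 ± 1.24 CPM in EMSC). Other extracellular modulators were split likewise, with 7 higher and 8 lower of 18 tested (median -0.08). The glypican gene Gpc1 was higher (385 ± 12.6 CPM in NPS-EMSC, 159 ± 6.41 CPM in EMSC) and Gpc6, another glypican, lower (176 ± 3.58 CPM in NPS-EMSC, 529.7 ± 54.6 CPM in EMSC). Cthrc1, whose product favours WNT5A binding to ROR2, was lower at 14.5 ± 0.769 CPM in NPS-EMSC and 65.1 ± 2.18 CPM in EMSC (log2 fold change -2.16, SE 0.07, adjusted p = 6.30e-19).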

How the data were processed

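The authors deposited raw read counts per gene and an FPKM table of the same 20653 genes, 1 column per library. Counts divided by the deposited FPKM and the column total gave 1 length per gene to within 0.1 percent for all 20653, so the FPKM are the counts rescaled. R 3.2.0, DESeq, StringTie, HTSeq, HISAT2 and fastp are listed in the submitters' processing notes, without saying what each did. For build, annotation and strand setting, no label or header gives an answer: not given in the sources used here. On assembly GRCr8, the spans of 14 of the 51 gene models overlap another gene model, with strand and introns not considered. Lgr5, Lrp5, Fzd3, Fzd5, Ror1 and Wls are among those called. Whether any of their counted reads came from the other gene was not tested.

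Counts were tested with edgeR 4.0.16 in R 4.3.3 (TMM, filterByExpr with minimum count 10 and total 15, glmQLFit with robust estimation, glmQLFTest, prior count 2) on all 6 libraries, NPS-EMSC over EMSC, which left 14505 genes tested. Each SE was taken as |log2 fold change|/√F, a rough guide for genes with few reads. Levels are CPM on TMM-scaled totals; sums and shares of families use FPKM, which carry no TMM scaling. No test was run on sums, shares or lists. The genes with values in every library are, per role, up to 5 called genes of largest change with at least 1 CPM, and the gene of highest FPKM. The procedure was also run on simulated counts with far fewer changed genes than were called here. That run does not show how it performs on these data. The genes and lists were chosen with earlier results of these data known. From each list of other pathway genes, up to 3 called genes of smallest p are named; 1 of them is not reported here.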

Additional observations from a re-analysis of the deposited data

How the results depend on the processing

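The calls and log2 fold changes of the 40 tested genes were recomputed with RLE or upper-quartile factors, DESeq2, limma-voom, every gene kept, only genes at 1 CPM or more in 3 libraries, limma on log2(FPKM + 1) with and without a filter at 0.5 FPKM, log2(FPKM + 0.1), a replicate block, and without each library in turn. A few genes of low level had no value under some settings. The 26 called genes kept their direction in all 416 refits and their call in 410; the 6 lost were those of Fzd8. Uncalled genes passed in 12 of 210 refits. Over all alternatives, 6 to 7 genes were called higher and 19 to 21 lower. At an adjusted p under 0.01, the numbers were 6 and 19. The same alternatives were added for the other lists after seeing the data: each count of the 4 pathway lists stayed within 1.5 times, and of their named genes only Axin2 lost its call. The leukocyte markers called lower numbered 3 to 6, and the 1 called higher numbered 0 to 1. Family sums, shares and ratios were recomputed only without each library in turn. With 3 libraries, leaving 1 out always moves a mean by less than 1 SD, so this does not show how stable they are.

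Log2(FPKM + 1) understates genes of low level: Rspo2 stood at -2.41 and Apcdd1 at -0.67 on it. The replicate numbers of the 2 groups showed no pairing, with correlations of same-numbered libraries between -0.0389 and 0.0461. With the number as a block, 8588 genes were called (4331 higher, 4257 lower), against 8600 without it, and 7 and 20 of the Wnt pathway genes, Sfrp4 being the added one (-0.28, adjusted p = 0.00145). Genes under about 1 CPM have wide errors at this depth, so a missing call there is not evidence of a like level.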
